A study of Mus musculus with 4 samples.

Results

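The genes described here encode the replicative DNA helicase of mouse cells and the factors that switch it on at replication origins. They are Mcm2, Mcm3, Mcm4, Mcm5, Mcm6 and Mcm7, the subunits of the MCM ring, and Mcm10, Cdc45, Gins1 and Gins2, which act when the ring is activated. They were chosen by name, with earlier results of these data known. All 10 were found among the 24444 genes of the table and had enough counts to be tested, as 15246 genes did. The 3 libraries labelled CT26-shppp2r1a came from BALB/c mouse tumours of CT26, a colon carcinoma line, in which ppp2r1a had been knocked down with a short hairpin RNA. The 1 library labelled CT26-scr came from a tumour of CT26 cells with a scrambled hairpin. Per the study's methods the cells were transfected, selected with puromycin and injected under the skin of BALB/c mice, and per the labels all tumours were taken at about 70 mm3. The sources used here do not say which hairpin each knockdown tumour carried, how old the mice were, or whether each tumour came from its own mouse. The p-values therefore cover no more than the spread among these libraries, which may be technical. The libraries are called shppp2r1a replicates 1, 2 and 3 and the scr control.

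Ppp2r1a encodes the scaffold subunit of the phosphatase PP2A, and the study asked how loss of PP2A acts through Rb and E2F. It stood at 40.2, 29.8 and 22.3 TPM in shppp2r1a replicates 1, 2 and 3, against 75.1 TPM in scr, a log2 fold change of -1.62. Total expected counts lay between 24726440 and 27910370 in the shppp2r1a libraries and were 28950004 in scr. Replicates 1 and 2 stood apart from replicate 3 and the control in their cell type markers. The summed level of 20 enterocyte genes was 32710, 81101 and 135500 TPM in shppp2r1a replicates 1, 2 and 3 and 125200 TPM in scr. That is 3.27%, 8.11% and 13.6% of all TPM in the shppp2r1a libraries and 12.5% in scr. Genes of differentiated gut epithelium at this level do not match a label that gives a colon cancer cell line grown under the skin, so which material was sequenced is in doubt. General epithelial markers summed to 9923 to 12832 TPM in the shppp2r1a libraries and 9700 TPM in scr. How much of the RNA came from CT26 cells was not determined, and the levels that follow are those of the libraries as labelled. With 1 control library, a feature of that tumour cannot be told apart from an effect of the knockdown.

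Before S phase, the origin recognition complex, Cdc6 and Cdt1 load the MCM ring onto DNA in an inactive form, a step called licensing. At S phase entry the kinase Cdc7, with its partner Dbf4, phosphorylates the ring, Cdc45 and the GINS complex join it, and Mcm10 helps the assembled helicase to start unwinding, an order worked out largely in budding yeast. The genes are classic targets of E2F transcription factors, which Rb holds back in resting cells, and MCM proteins are used as markers of cycling cells. In intestinal epithelium such cells lie in the crypts, while the enterocytes of the villus no longer divide.

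Because the study's question runs through E2F, the promoter windows of the genes were searched for E2F-type letters on both strands (TTTCGCGC, TTTGGCGC, TTTCCCGC or TTTGCCGC, some of which overlap one another when read on opposite strands). The windows span 250 bases before to 50 bases after each RefSeq start in GRCm38.p6. Of the 10 genes, 7 had a window, and 4 of these 7 (Mcm3, Mcm5, Mcm6 and Mcm7) held at least 1 match, beside 2.6% of the 27025 genes with a window. The shorter box CCAAT was found in the windows of 7 of 7, beside 41.1% of all genes. Mcm4, Gins1 and Gins2 are named only. The windows of Mcm2, Mcm10 and Cdc45 held no E2F-type match. The stretches around matches are shown because they carry the letters by which Mcm3, Mcm5, Mcm6 and Mcm7 differ from those genes. Each is written 5′ to 3′ on the strand of its gene, with the match in capitals.
Mcm3, chr1:20820275-20820304, minus strand, 20 bases after the start: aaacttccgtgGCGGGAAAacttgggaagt
Mcm5, chr8:75109332-75109387, plus strand, 153 bases before the start: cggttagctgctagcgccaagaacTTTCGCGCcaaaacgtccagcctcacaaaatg
Mcm6, chr1:128359784-128359839, minus strand, 110 bases before the start: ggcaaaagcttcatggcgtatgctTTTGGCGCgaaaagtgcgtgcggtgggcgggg
Mcm6, chr1:128359721-128359776, minus strand, 47 bases before the start: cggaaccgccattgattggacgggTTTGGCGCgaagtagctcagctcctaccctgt
Mcm7, chr5:138172017-138172072, minus strand, 165 bases before the start: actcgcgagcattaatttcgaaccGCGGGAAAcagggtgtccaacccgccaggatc
Mcm7, chr5:138171849-138171878, minus strand, 17 bases after the start: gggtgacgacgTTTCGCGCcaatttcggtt
In Mcm3 and in the upstream stretch of Mcm7 the match reads on the opposite strand, so that the capitals show its reverse complement. In Mcm5 and in the Mcm6 stretch that lies 110 bases before the start, a second match, on the opposite strand, begins 4 bases further on and shares letters with the one shown, and Mcm3 has another match 39 bases after its start. Distances count from the RefSeq start. For Mcm7 that start lies inside the gene as annotated by GENCODE (138164583 to 138172422, minus strand), and so do the Mcm7 stretches shown. Another Mcm7 window, at chr5:138171217-138171516, held no E2F-type match. A match is a run of letters, and binding was not measured here.

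All 10 genes had a higher level in each of the 3 knockdown libraries than in the control, and none passed the test across all genes. In such bulk tissue, fewer cells of a type and less RNA per cell cannot be told apart. Levels are given first in TPM, a share of transcripts on a fixed total per library that corrects for gene length, so that genes can also be set beside each other. The log2 fold changes, with their standard errors (SE), come from the expected counts with TMM scaling. The test is the two-sided quasi-likelihood test of edgeR, adjusted by Benjamini and Hochberg's method over the 15246 genes tested. At an adjusted p of 0.05 it called 0 of the 10, where it called 0.0% of all genes. None of the 10 had an unadjusted p under 0.05 either, where 3.63% of all genes did. DESeq2 called 0 of the 10 as well, beside 1.06% of genes called higher, and 1 of the 10, Mcm5, had an unadjusted p under 0.05 by that tool.

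**Figure D1:**
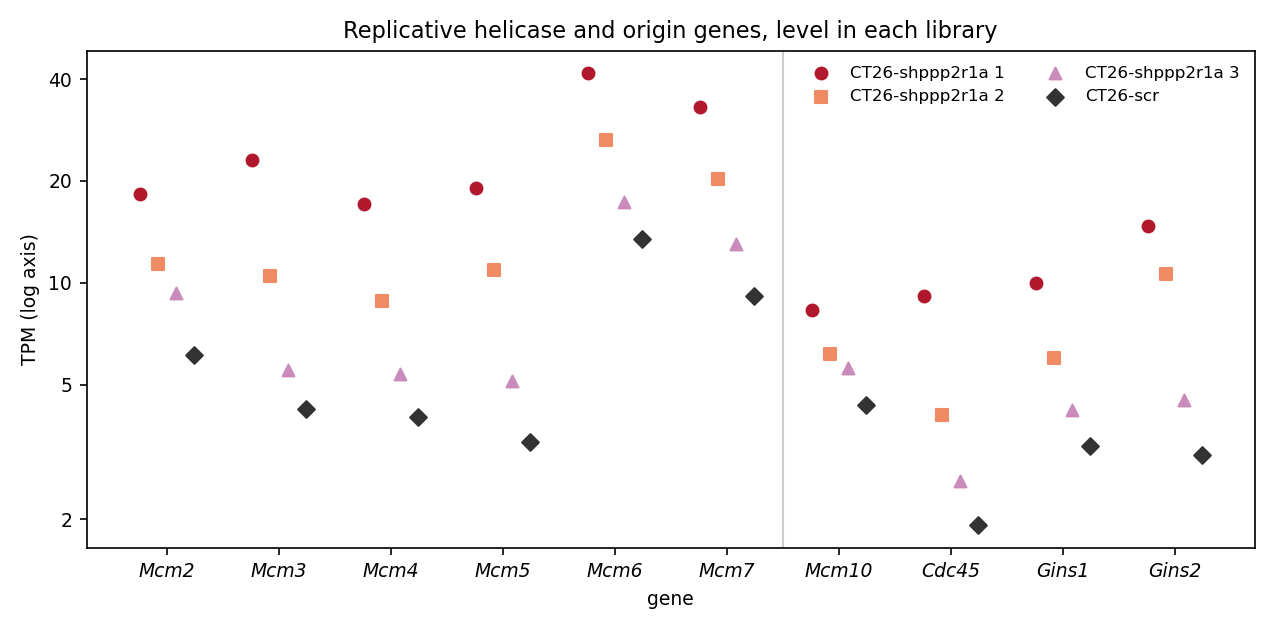
Level of each gene in TPM (log axis) in each library, 3 knockdown libraries and 1 control library from left to right within a gene, with the MCM ring left of the grey line and the activation genes right of it. In every gene the control is the lowest point and shppp2r1a replicate 1 the highest, from 41.6 TPM for Mcm6 in replicate 1 to 1.92 TPM for Cdc45 in scr.

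Mcm5 had the largest log2 fold change. With Mcm2 it forms the gate through which DNA enters the ring, as known from yeast and fly. It lies on chromosome 8 from 75109569 to 75128439, plus strand, in GRCm38. It had 19.1, 10.9 and 5.13 TPM in shppp2r1a replicates 1, 2 and 3, against 3.38 TPM in scr. The knockdown mean was 11.7 ± 7.0 TPM (SD, n = 3), and the highest knockdown library was 3.72 times the lowest. Its log2 fold change was 1.40 (SE 0.64), with an adjusted p of 0.766 by edgeR, the value that 9 of the 10 genes share. Without shppp2r1a replicate 3 it was the 1 gene of the 10 that passed, with a log2 fold change of 1.69 and an adjusted p of 0.0368, while in that fit 5.38% of all genes were called higher. Over all 14 alternatives its adjusted p ran from 0.0368 to 1.00.

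Mcm3 and Mcm4 had the same order of libraries as Mcm5 and a wide spread. Mcm3, a ring subunit that contacts the loading factors in yeast, lies on chromosome 1 from 20802968 to 20820312. It had 23.1, 10.5 and 5.53 TPM in shppp2r1a replicates 1, 2 and 3, against 4.24 TPM in scr, and of the 10 genes it spread most within the knockdown group, 4.18-fold. Its log2 fold change was 1.23 (SE 0.70). Without shppp2r1a replicate 1 the log2 fold change was 0.72. Mcm4, a main target of the Cdc7 kinase in yeast, lies on chromosome 16 from 15623897 to 15637400. It had 17.2, 8.81 and 5.36 TPM in the shppp2r1a libraries, against 4.0 TPM in scr, and a log2 fold change of 1.01 (SE 0.56), or 0.63 without replicate 1. For both genes replicate 3 lay close to the control and replicate 1 far above it.

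Mcm6 and Mcm7 were the most abundant of the 10 in every library. Together with Mcm4 they form a subcomplex that unwinds DNA in the test tube. Mcm6, on chromosome 1 from 128331590 to 128359664, had 41.6, 26.4 and 17.4 TPM in shppp2r1a replicates 1, 2 and 3, against 13.4 TPM in scr. This gave a log2 fold change of 0.74 (SE 0.39). Mcm7, on chromosome 5 from 138164583 to 138172422, had 33.0, 20.2 and 13.1 TPM, against 9.16 TPM in scr, and a log2 fold change of 0.92 (SE 0.43). Their control levels were the highest of the 10 and their log2 fold changes smaller than those of Mcm3, Mcm4 and Mcm5. The microRNA genes Mir25, Mir93 and Mir106b lie within Mcm7, and the table lists all 3 at 0 TPM in every library. Mcm7 also overlaps Ap4m1 by 421 bases and Cops6 by 64 bases on the opposite strand, and the sources used here do not say whether counting used the strand. Ap4m1 was at 8.63, 8.08 and 6.19 TPM in the shppp2r1a libraries and 5.84 TPM in scr.

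Mcm2 had the narrowest spread of the ring genes within the knockdown group. Its tail binds histones, and its protein is often stained as a proliferation marker. It lies on chromosome 6 from 88883474 to 88898780, and had 18.4, 11.4 and 9.31 TPM in shppp2r1a replicates 1, 2 and 3, against 6.10 TPM in scr. The knockdown mean was 13.0 ± 4.7 TPM (SD, n = 3), and the log2 fold change was 0.76 (SE 0.34). Its unadjusted p of 0.0829 was the lowest of the 10 by edgeR. In shppp2r1a replicate 3 Mcm2 had the largest ratio of the 10, at 1.48 times the control after TMM scaling.

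Among the genes that activate the ring, Gins2, Cdc45 and Gins1 had log2 fold changes in the range of the ring genes or just under it, and Mcm10 had the smallest of the 10. Gins1 and Gins2 are subunits of GINS, and Cdc45 joins GINS on the ring to make the active helicase. Gins2, on chromosome 8 from 120578633 to 120589304, had 14.7, 10.6 and 4.49 TPM in shppp2r1a replicates 1, 2 and 3, against 3.09 TPM in scr. Its log2 fold change was 1.32 (SE 0.66), the second largest of the 10. The gene lies wholly within Gm20388, an annotated protein-coding gene on the opposite strand with no values used here. It also overlaps Gse1 by 2758 bases on the opposite strand, which was at 13.1, 12.5 and 13.5 TPM in the shppp2r1a libraries and 11.6 TPM in scr. Gins1, on chromosome 2 from 150905400 to 150931280, had 10, 5.99 and 4.21 TPM, against 3.29 TPM in scr, and a log2 fold change of 0.68 (SE 0.51), or 0.45 without replicate 1. Gins1 and Gins2 had among the lowest counts of the 10, with 57 and 51 expected counts in the control.

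Cdc45 had the lowest level of the 10 in scr. It lies on chromosome 16 from 18780447 to 18811987, and had 9.13, 4.06 and 2.60 TPM in shppp2r1a replicates 1, 2 and 3, against 1.92 TPM in scr. The log2 fold change of Cdc45 was 1.09 (SE 0.65), and 0.66 without replicate 1. It overlaps Ufd1 by 209 bases on the opposite strand. Mcm10, on chromosome 2 from 4989714 to 5012791, had 8.30, 6.17 and 5.59 TPM, against 4.36 TPM in scr. Its knockdown mean was 6.69 ± 1.43 TPM (SD, n = 3), its log2 fold change 0.30 (SE 0.30), and its adjusted p 0.769 by edgeR, with a range from 0.707 to 1.00 over the alternatives. The 3 knockdown libraries of Mcm10 lay within 1.48-fold of each other, the narrowest spread of the 10 genes.

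Taken library by library, the distance from the control was large in replicate 1, intermediate in replicate 2 and small in replicate 3. In TPM, Ppp2r1a fell along the same order, at 40.2, 29.8 and 22.3 TPM in replicates 1, 2 and 3. These TPM do not carry the TMM scaling used for the ratios of the 10 genes. The TMM factors, 1.30, 1.06 and 0.867, fell in that order too, so the Ppp2r1a steps are smaller after such scaling. The library with the least Ppp2r1a in TPM was thus the nearest to the control in these 10 genes, and a link was not tested. The median log2 ratio of the 10 genes over the control was 1.42, 0.85 and 0.41 in shppp2r1a replicates 1, 2 and 3, where the median of all genes tested was 0.07, 0.04 and 0.01. In replicate 1, 9 of the 10 were at least 2-fold above the control, all but Mcm10, beside 23.8% of all genes. In replicate 2, 3 of the 10 were (Mcm3, Mcm5 and Gins2), beside 14.5% of all genes, and in replicate 3 none was, beside 5.18%. These counts moved with the scaling: under library size alone they were 9, 7 and 0, beside 39.2%, 21.8% and 5.12% of all genes, and with RLE factors 7, 2 and 0, beside 22.8%, 13.8% and 5.17%. All 10 were above the control in all 3 knockdown libraries, beside 31.8% of all genes. This also held with RLE factors, under library size alone, and on TPM and FPKM. The other settings were judged on the same TMM-scaled levels, or on part of them, so they could not change this count. The fitted median log2 fold change of the 10 was 0.96, beside 0.06 over all genes tested, and was 0.65 without replicate 1 and 1.17 without replicate 3. On the TPM scale the median of all genes was itself shifted, by 0.22 on log2(TPM + 1), and the median of the 10 exceeded it by 0.79. An exact permutation over the libraries could reach no p lower than 0.25.

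**Figure D2:**
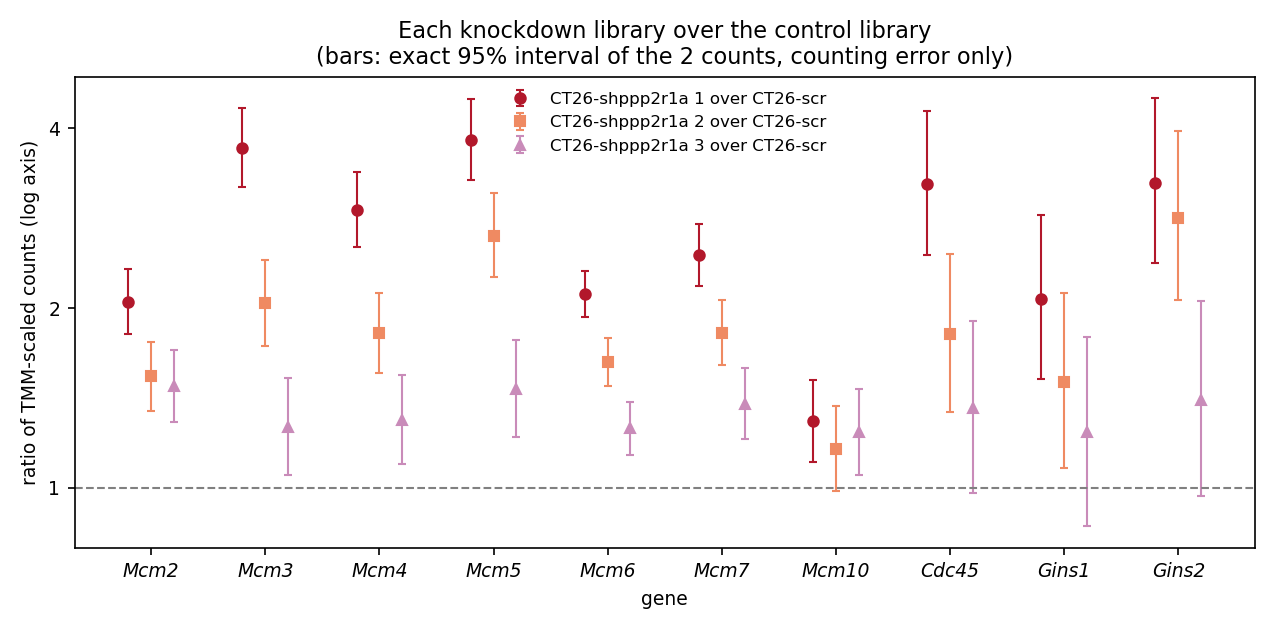
Ratio of each knockdown library to the control library for each gene, from expected counts with TMM scaling (log axis), with bars for the exact 95% interval of the 2 counts, which covers counting error only; the dashed line is a ratio of 1. Replicate 1 lies above replicate 2 in all genes, and replicate 3 is at most 1.48 times the control.

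The counts were deep enough to place most of these ratios above 1, as far as counting alone is concerned. Expected counts of the 10 genes ran from 70 to 1876 in the shppp2r1a libraries and from 51 to 677 in scr. With an exact binomial 95% interval, which covers counting error only, the lower bound of the ratio was above 1 for 10 of 10 genes in shppp2r1a replicate 1, 9 of 10 in replicate 2 and 7 of 10 in replicate 3. For Mcm5 in replicate 1 the ratio was 3.83 with an interval from 3.28 to 4.48. The exception in replicate 2 was Mcm10, at a ratio of 1.16 with an interval from 0.988 to 1.37. In replicate 3 a difference was not detectable at this depth for Cdc45, at 1.36 (0.979 to 1.90), for Gins1, at 1.24 (0.861 to 1.79), and for Gins2, at 1.41 (0.967 to 2.06). These intervals compare single libraries and not the conditions.

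Mcm6 and Mcm7 kept the largest shares of the ring transcripts in the 4 libraries, while the other ring genes changed places and the sum varied widely. Mcm2 to Mcm7 together came to 152, 88.1 and 55.8 TPM in shppp2r1a replicates 1, 2 and 3, against 40.3 TPM in scr. Mcm6 took 27.3%, 29.9% and 31.2% of that sum in the shppp2r1a libraries and 33.3% in scr. Mcm7 took between 21.7% and 23.4% in the shppp2r1a libraries and 22.7% in scr, the steadiest share of the ring genes. Mcm6 was above Mcm7 and Mcm7 above Mcm3 in 4 of 4 libraries. Further down the order, neighbours changed places between libraries: Mcm2 was above Mcm5 in 3 of 4 and Mcm5 above Mcm4 in 2 of 4.

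The shares of Mcm3 and Mcm5 differed most. Mcm5 took 12.5%, 12.4% and 9.20% of the ring sum in shppp2r1a replicates 1, 2 and 3 and 8.38% in scr, and Mcm3 took 15.2%, 11.9% and 9.92% against 10.5%. The ratio of Mcm6 to Mcm5 was 2.18, 2.42 and 3.39 in the shppp2r1a libraries and 3.98 in scr, and the highest ring gene over the lowest was 2.43, 2.99 and 3.39 against 3.98. Mcm10 stood at 0.327, 0.420 and 0.601 of the mean ring subunit in the shppp2r1a libraries and at 0.649 in scr. Cdc45 over the same mean was 0.360, 0.277 and 0.280, against 0.286 in scr, and the ratio of Gins1 to Gins2 was 0.679, 0.564 and 0.938, against 1.06. Ratios within a library do not depend on scaling between libraries.

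**Figure D3:**
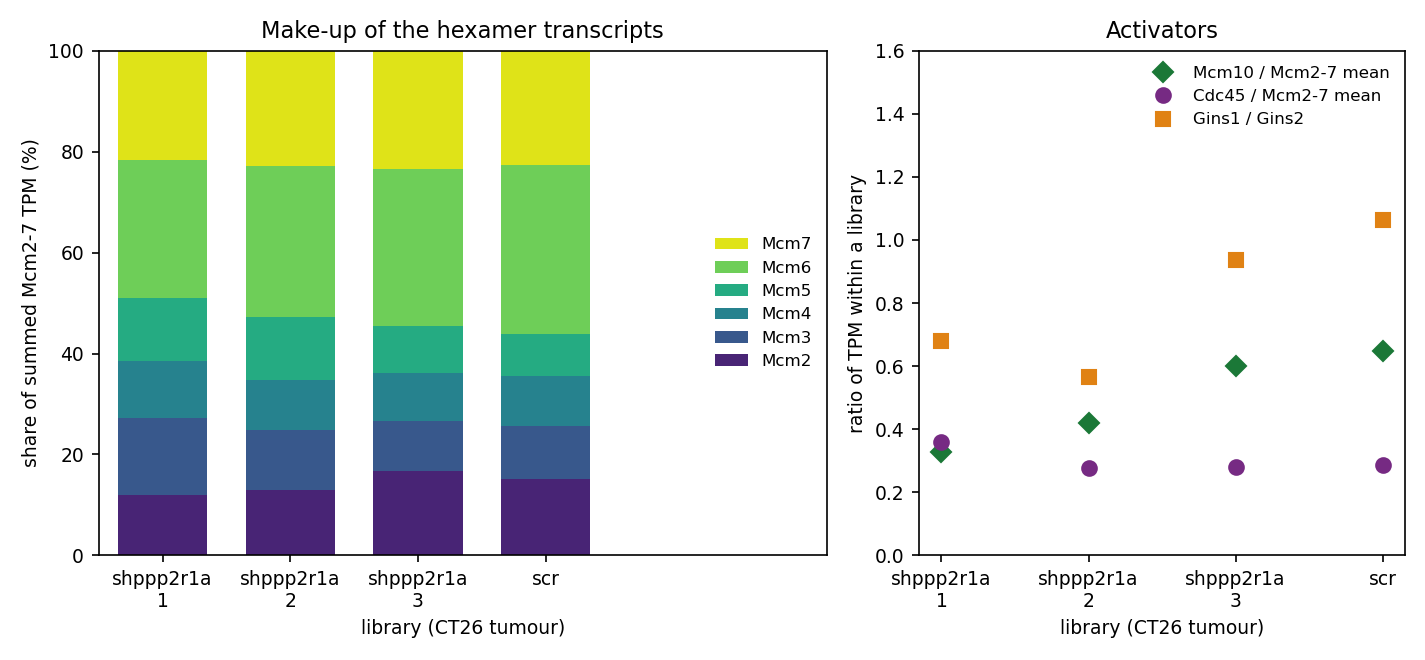
Left, share of each ring gene in the summed TPM of Mcm2 to Mcm7 in percent, 1 bar per library; right, ratios of TPM within a library for the activation genes. The share of Mcm6 is 27.3% in shppp2r1a replicate 1 and 33.3% in scr, and Mcm10 relative to the mean ring subunit is 0.327 in shppp2r1a replicate 1 and 0.649 in scr.

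The genes that load the ring at origins had a median log2 fold change close to that of all genes. Of 10 licensing genes tested, 0 passed, 5 had a positive log2 fold change, 3 were higher in all 3 knockdown libraries and 1 was lower in all 3, beside 53.5%, 31.8% and 27.7% of all genes. Their median log2 fold change was 0.04, against 0.06 for all genes, and was 0.38 under library size alone, where all genes moved to 0.40, and -0.0039 without replicate 2. Orc1, the origin recognition subunit that comes and goes with the cell cycle in mammals, had 3.20, 1.55 and 0.68 TPM in the shppp2r1a libraries and 0.32 TPM in scr, a log2 fold change of 2.12. Orc2 had 11.6, 7.05 and 3.67 TPM, against 3.51 TPM in scr, a log2 fold change of 0.77. Orc3 and Orc4, other subunits of the same complex, had log2 fold changes of 0.08 and -0.01, and of 0.41 and 0.35 under library size alone, and that of Orc4 was 0.07 without replicate 3. Without replicate 3, 1 of the 10 licensing genes passed, Orc1, where 5.38% of all genes were called higher and 8.05% in either direction. Cdt1, Cdc6 and Gmnn are named after their values were seen. Cdt1, the loader of the ring, had 12.8, 11 and 9.04 TPM in the shppp2r1a libraries and 10.98 TPM in scr, Cdc6 had 2.39, 1.36 and 1.55 TPM against 0.88 TPM, and Gmnn, the inhibitor of Cdt1, had 50.1, 39.0 and 46.7 TPM against 44.4 TPM. The log2 fold changes of Cdt1 and Gmnn were -0.31 and -0.26, and 0.04 and 0.06 under library size alone.

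The genes that fire origins were mixed. Of 10 tested, 0 passed and 8 had a positive log2 fold change. In all 3 knockdown libraries 5 were higher and 2 were lower. Over all genes the shares were 53.5% positive, 31.8% higher and 27.7% lower. The firing genes had a median log2 fold change of 0.68 (0.31 without replicate 1). Dbf4, the activating partner of Cdc7, had 15.7, 9.10 and 5.93 TPM in the shppp2r1a libraries and 3.74 TPM in scr, and Cdc7 had 5.61, 1.82 and 1.00 TPM against 1.04 TPM. The log2 fold change of Cdc7 was 1.01, and 0.24 without replicate 1. The other GINS subunits had smaller log2 fold changes than Gins1 and Gins2. Gins3 had 2.80, 1.62 and 1.34 TPM, against 1.49 TPM in scr, and Gins4 had 21.1, 16.2 and 12.5 TPM, against 15.5 TPM. Their log2 fold changes were 0.03 and -0.22, beside 0.68 for Gins1 and 1.32 for Gins2, and that of Gins3 was just under 0 with RLE factors and -0.18 without replicate 1, while that of Gins4 was 0.14 under library size alone. No difference between subunits was tested.

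Genes that guard the fork were higher in most libraries. Of 6 tested, 0 passed and 6 had a positive log2 fold change, beside 53.5% of all genes. Of the 6, 5 were higher in all 3 knockdown libraries, beside 31.8% of all genes. The fork protection genes had a median log2 fold change of 0.81 (0.49 without replicate 1). Tipin, which travels with the helicase in complex with Timeless, had 18.3, 10.98 and 6.36 TPM in the shppp2r1a libraries and 4.77 TPM in scr. Clspn, the checkpoint mediator claspin, had 2.75, 1.44 and 0.87 TPM against 0.51 TPM. Timeless and Rif1 had log2 fold changes of 0.79 and 0.72.

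Among replicative polymerases and other fork genes, 0 of 27 passed and 23 had a positive log2 fold change, beside 53.5% of all genes. In all 3 knockdown libraries 16 of them were higher and 1 was lower, beside 31.8% and 27.7% of all genes. The median log2 fold change of the 27 was 0.51. Under library size alone it was 0.90 with 27 of 27 positive, and without replicate 1 it was 0.27 with 21 of 27 positive. Prim2, a primase subunit, had 9.80, 5.44 and 2.86 TPM in the shppp2r1a libraries and 2.41 TPM in scr, and its partner Prim1 had 13.2, 8.25 and 5.19 TPM against 4.90 TPM. Pola1 and Pola2, the polymerase subunits that work with primase, had log2 fold changes of 0.73 and -0.16, the second of which was 0.16 under library size alone. Pcna, the sliding clamp, had 183, 133 and 118 TPM in the shppp2r1a libraries and 129 TPM in scr. Its log2 fold change was -0.15, and 0.21 under library size alone, so its direction depended on the scaling.

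Of 8 genes that supply nucleotides, 0 passed and 6 had a positive log2 fold change, beside 53.5% of all genes. In all 3 knockdown libraries 5 were higher and 1 was lower, beside 31.8% and 27.7% of all genes. The nucleotide genes had a median log2 fold change of 0.61 (0.35 without replicate 1). Rrm1 and Rrm2 encode the subunits of ribonucleotide reductase. Rrm1 had 31.5, 15.2 and 9.14 TPM in the shppp2r1a libraries and 6.64 TPM in scr, and Rrm2 had 26.7, 12.0 and 5.87 TPM against 5.2 TPM. Tyms and Tk1, which make thymidine nucleotides, both had a log2 fold change of 0.61. In the mitosis list 0 of 20 passed, and 20 of 20 were higher in all 3 knockdown libraries, beside 31.8% of all genes. The mitosis genes had a median log2 fold change of 1.20 (0.75 without replicate 1). Without replicate 3, 2 of the 20 passed, Cdc20 and Kif23, named after their values were seen, beside the same 5.38% of genes called higher. Mki67, the proliferation antigen, had 27.0, 13.9 and 6.78 TPM in the shppp2r1a libraries and 5.64 TPM in scr. Top2a, Cdk1 and Ccna2 had log2 fold changes of 1.21, 0.89 and 1.07.

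**Figure D4:**
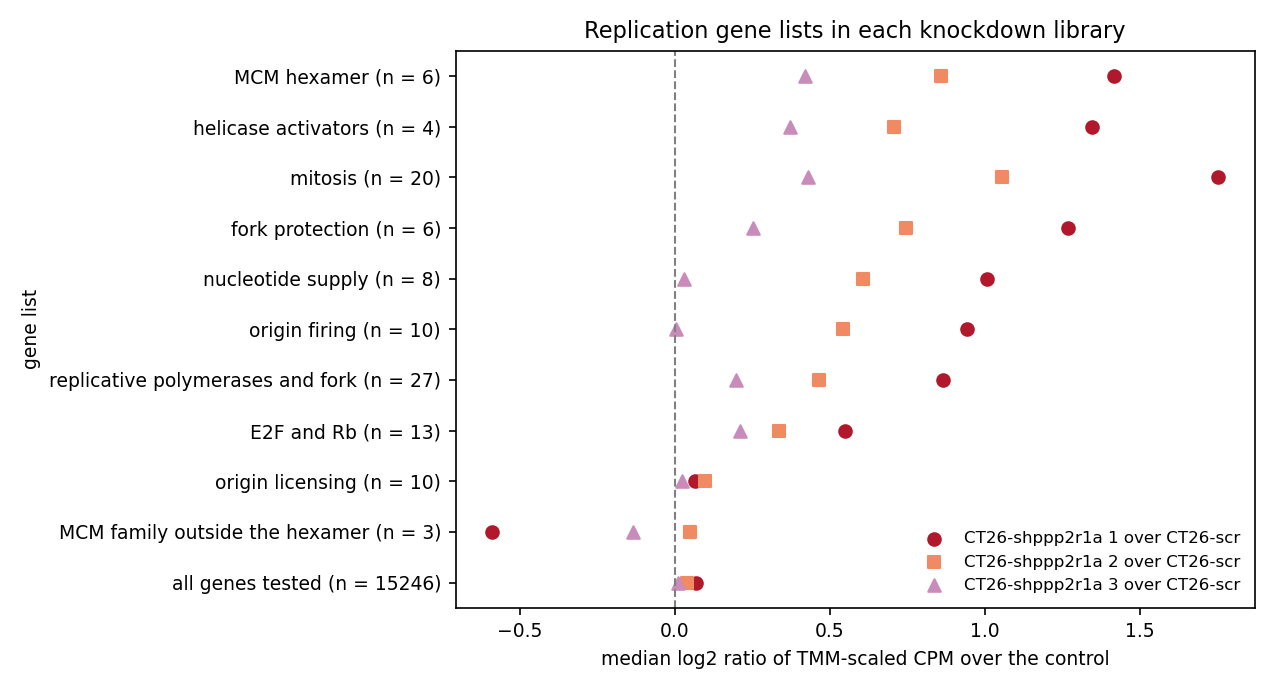
Median log2 ratio over the control of each replication gene list in each knockdown library, from expected counts with TMM scaling, with all genes tested in the bottom row; the dashed line is no difference. The ring genes have medians of 1.42, 0.86 and 0.42 in replicates 1, 2 and 3 and the mitosis list 1.75, 1.06 and 0.43, while the licensing list stays at 0.10 or below.

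The summed level of the 10 genes kept a narrower range relative to the mitosis list than relative to the licensing or polymerase lists. The 10 genes came to 194, 115 and 72.7 TPM in shppp2r1a replicates 1, 2 and 3, against 53.0 TPM in scr. Divided by the summed mitosis list they were at 0.398, 0.472 and 0.511 in the shppp2r1a libraries and 0.482 in scr, a range of 1.28-fold over the 4 libraries. Divided by the licensing list they were at 1.24, 0.908 and 0.641, against 0.470 in scr, a range of 2.63-fold. Relative to the polymerase and fork list they were at 0.257, 0.209 and 0.156, against 0.121, a range of 2.12-fold. Relative to nucleotide supply they were at 0.932, 0.823 and 0.751, against 0.522. These sums are dominated by their most abundant genes, such as Pcna in the polymerase list.

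The E2F and Rb genes themselves did not share a direction. Of 13 tested, 0 passed and 9 had a positive log2 fold change, beside 53.5% of all genes. In all 3 knockdown libraries 6 were higher and 3 were lower, beside 31.8% and 27.7% of all genes. E2f2, an activating E2F, had 20.4, 15.96 and 7.44 TPM in the shppp2r1a libraries and 5.21 TPM in scr, and E2f1 had 5.11, 2.77 and 1.29 TPM against 1.51 TPM. E2f7, a repressing member, had 1.10, 0.80 and 0.34 TPM, against 0.17 TPM in scr, while E2f3 and E2f4 had log2 fold changes of 0.13 and 0.29, and that of E2f3 was -0.27 without replicate 3. The log2 fold change of E2f1 was 0.63, and 0.22 without replicate 1. Rb1, the brake on E2F, had 18.4, 27.8 and 31.2 TPM in the shppp2r1a libraries and 38.5 TPM in scr, a log2 fold change of -0.81. Rb1 was thus lowest in the library with the highest ring transcripts, and phosphorylation of its protein, part of the study's question, was not measured in these libraries. Without replicate 3, 1 of the 13 passed, E2f2, where 5.38% of all genes were called higher and 8.05% in either direction.

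MCM family genes that are not part of the ring lay on both sides of the control. Of 3 tested, 0 passed and 1 had a positive log2 fold change, beside 53.5% of all genes. Mcm8, which acts with Mcm9 in recombination repair, had 2.23, 1.35 and 0.51 TPM in shppp2r1a replicates 1, 2 and 3, against 0.60 TPM in scr, and Mcm9 had 1.98, 2.56 and 2.55 TPM against 2.04 TPM. Mcmdc2, known for a role in meiosis, had 4.17, 6.34 and 16.3 TPM, against 17.4 TPM in scr, the reverse order of libraries. Its log2 fold change was -1.13 with an adjusted p of 0.766 by edgeR, and it passed without replicate 3, where 8.05% of all genes did. The median of the 3, which is the value of Mcm9, was -0.05, and turned to 0.25 under library size alone and to 0.16 without replicate 1.

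Markers of several cell types moved with or against the 10 genes across the libraries. Over all genes tested, 31.8% were higher and 27.7% lower in all 3 knockdown libraries. Of 20 enterocyte genes none had a positive log2 fold change, beside 53.5% of all genes, and 10 were lower in all 3. Their median log2 fold change was -0.84, and -0.41 without replicate 1, where 4 of 20 were positive, and their median log2 ratio was -2.61, -0.91 and -0.02 in replicates 1, 2 and 3. Of 6 plasma cell genes 6 were higher in all 3, with sums of 9151, 3297 and 1072 TPM in the shppp2r1a libraries and 455 TPM in scr, and of 8 neutrophil genes 8 were, with 1241, 988 and 21.6 TPM against 5.64 TPM. Without replicate 3 all 8 neutrophil genes passed, where 5.38% of all genes were called higher and 8.05% in either direction. In that fit 4 large bowel genes passed, and 2 each of the plasma cell, stem and crypt, fibroblast and T cell genes. From the enterocyte, macrophage and B cell genes 1 each passed, and no smooth muscle or Paneth and goblet cell gene did. Of 8 macrophage genes 5 were higher in all 3, with 805, 392 and 162 TPM against 156 TPM, and of 9 fibroblast genes 3 were, with 663, 341 and 155 TPM against 115 TPM. Of 10 stem and crypt genes 4 were higher in all 3 and 1 was lower in all 3, with 135, 124 and 89.2 TPM against 72.2 TPM. Of 9 large bowel genes 3 were higher and 2 lower in all 3, with 3929, 2098 and 242 TPM against 310 TPM. T cell genes did not show that order, with 3 of 9 higher and 1 of 9 lower in all 3 and sums of 63.1, 48.7 and 79.8 TPM in the shppp2r1a libraries and 60.4 TPM in scr. The T cell genes that passed without replicate 3 went opposite ways. In replicates 1 and 2 the log2 ratio was -2.35 and -1.30 for Cd8a and 3.71 and 2.47 for Cd5. For Slc2a5, the enterocyte gene that passed in that fit, it was -4.19 and -2.51. These genes are named after their values were seen. Germinal centre and other B cell genes, which mark dividing lymphocytes in part, summed to 140, 71.3 and 20.1 TPM against 21.1 TPM, with 2 of 9 higher and 3 of 9 lower in all 3. Of 7 smooth muscle genes 0 were higher and 3 lower in all 3, with sums of 759, 442 and 253 TPM against 450 TPM, and of 11 Paneth and goblet cell genes 2 were higher and 4 lower in all 3, with 16708, 19651 and 18514 TPM against 20706 TPM. Of the listed markers, 9 of 11 large bowel and 9 of 10 T cell genes were among the genes measured, and 9 of 10 B cell genes had enough counts to be tested. None of the markers measured was at 0 in all 4 libraries. The part of these cell types in the levels of the 10 genes was not tested.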

How the data were processed

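RNA from 4 bulk libraries was analysed at the gene level from 1 table. The authors deposited, per gene and library, expected counts (estimates that can be fractional), TPM (length-corrected shares of transcripts on a fixed total) and FPKM (fragment counts corrected for depth and length). The authors' deposited table also holds their own comparison, as a fold or ratio between the groups and as a posterior probability that expression is equal, which is not a p-value. Neither was used. Bowtie 0.12.2 and the builds mm8 and mm10 appear in the submitters' processing notes with no roles; counter and annotation: not given in the sources used here. Columns were matched to libraries by the sample descriptions, and 0 columns of per-sample values were left over. Of the expected counts 5.30% to 5.89% per library were fractional; all were rounded to whole numbers. Positions are from GENCODE for GRCm38 and promoter sequences from RefSeq for GRCm38.p6; neither comes from the table.

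With filterByExpr at a minimum count of 10, 15246 of 24444 genes were kept. TMM factors were 1.30, 1.06 and 0.867 for shppp2r1a replicates 1, 2 and 3 and 0.844 for scr. Testing used edgeR 4.0.16 (R 4.3.3), its quasi-likelihood F-test with Benjamini-Hochberg adjustment, at a threshold of 0.05; the residual spread came from the knockdown libraries, and the control was assumed to vary like them. Ratios per library used log2 CPM with a prior count of 2; counting intervals are exact (Clopper-Pearson) at 95%, and cover counting error only. Alternatives were RLE factors, library size alone, no filter, at least 50 counts in a library, robust empirical Bayes, the older quasi-likelihood fit, DESeq2 1.42.0, limma 3.58.1 on log2 CPM, on log2(TPM + 1), on log2(TPM + 0.1) and on log2(FPKM + 1), and each knockdown library left out. The fits were also run on simulated counts with a spread shared by all genes. Those runs do not model differences in cell make-up among the libraries, and no conclusion is drawn from them. The genes and lists were chosen with earlier results of these data known. Named were all 10 genes, the first 4 tested genes of each replication list, Mki67, Top2a, Pcna, Rrm2, Mcm8, Mcm9, E2f1, E2f7, Rb1 and Ppp2r1a, the 5 genes outside the 10 most like them, and genes starting within 1000 bases upstream on the opposite strand.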

Additional observations from a re-analysis of the deposited data

How the results depend on the processing

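The levels of all 10 genes stayed above the control in every knockdown library with RLE factors, library size alone, TPM and FPKM. The other alternatives reused the TMM-scaled levels, so they could not change this. All 10 genes kept a positive log2 fold change under each of the 14 alternatives. Their median log2 fold change, 0.96 with all libraries, ran from 0.65 (without shppp2r1a replicate 1) to 1.17 (without replicate 3) with a library left out, and was 1.37 under library size alone, where all genes had a median of 0.40. Above the median of all genes it stayed between 0.62 and 1.10. The number of the 10 at least 2-fold above the control in replicate 2 was 3 with TMM, 2 with RLE factors and 7 under library size alone, settings chosen for this count after seeing the data. The number of the 10 that passed was 0 in all fits except 1 without replicate 3 (Mcm5), so that it ran from 0 to 1 with a library left out. Over all genes edgeR called 0 and DESeq2 178, and leaving out a knockdown library gave 0 to 1221 calls by edgeR, with 0 without replicate 1, 166 without replicate 2 and 1221 without replicate 3. The cause was not tested; each of these fits takes its spread from the remaining knockdown pair. Unadjusted p values under 0.05 numbered 554 with all 4 libraries and 3665 without replicate 3, of which 7 were among the 10 genes. No paired analysis was possible because the single control shares at most 1 replicate number with the knockdown libraries. Low counts limit Cdc45, Gins1 and Gins2 in replicate 3.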

Other observations

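Of 10669 genes with a mean log2 CPM of 2 or more, those closest to the mean profile of the 10 genes over the 4 libraries were Galc, Nip7, Utp14a, Ncapd2 and Ywhag, with root mean square distances of 0.021 to 0.028 on the log2 scale. Nip7 had 23.5, 13.5 and 8.46 TPM in shppp2r1a replicates 1, 2 and 3, against 6.39 TPM in scr, and Ncapd2, a condensin subunit, had 11.2, 6.87 and 4.14 TPM against 3.11 TPM. Among the 10 genes themselves Mcm7 lay closest to their mean, at 0.039, and Mcm10 farthest, at 0.40. With 4 libraries such a likeness rests on few points.

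For 2 of the 10 genes a protein-coding gene on the opposite strand starts within 1000 bases upstream of their own start, not counting genes whose start lies inside theirs. Mcm4 starts 466 bases from Prkdc, the catalytic subunit of the DNA-dependent protein kinase, which had 1.75, 1.19 and 0.94 TPM in the shppp2r1a libraries and 0.87 TPM in scr, and a log2 fold change of 0.23 with a standard error of 0.35. Gins1 starts 659 bases from Abhd12, a lipase gene, which had 49.0, 76.6 and 99.5 TPM in the shppp2r1a libraries and 119.8 TPM in scr. The log2 fold change of Abhd12 was -0.90 with a standard error of 0.60, opposite in sign to the 0.68 of Gins1.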
